A study of Rattus norvegicus with 12 samples.

Results

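miR-223 and miR-142 are miRNAs of blood cells, measured here by small RNA sequencing in rat heart and in serum samples, and each was counted as the 2 arms of its hairpin. The members were chosen by name as rno-miR-223-3p, rno-miR-223-5p, rno-miR-142-3p and rno-miR-142-5p (the prefix for rat is left out from here on), and all 4 were listed in the deposited heart table (574 miRNAs) and in the deposited exosome table (367 miRNAs), out of 583 different miRNAs in both. The 12 samples came from SD rats, 6 labelled heart and 6 labelled serum, with no age or sex given. Both tables set libraries headed M against libraries headed CK. The labels neither explain these headings nor assign any sample to them. The design text describes a coronary artery ligation of 30 min followed by a week of reperfusion, and whether CK, M or both had it is not given. The table called exosome (small vesicles released by cells) is the only table left for the serum samples, and its preparation is not described in the labels.

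A miRNA gene is transcribed as a hairpin, from which the 5p and 3p arms are cut as a duplex, and the arm that is loaded into Argonaute guides it to target mRNAs mainly through its seed, bases 2 to 8. miR-223 is a miRNA of myeloid cells, high in neutrophils and monocytes and also carried in platelets, and in mice it restrains granulocyte production and inflammatory signalling. miR-142 is expressed throughout the blood lineages and is widely used as a mark of leukocytes as a whole. In heart tissue, cardiomyocytes make little of either, so both are commonly read as marks of blood cells in the tissue.

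The mature sequences are shown because the results turn on how reads divide between the arms. They are from RefSeq (GRCr8), in lower case with the seed in capitals.
miR-223-3p: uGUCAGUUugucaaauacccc
miR-223-5p: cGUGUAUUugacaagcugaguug
miR-142-3p: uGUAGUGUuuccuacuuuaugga
miR-142-5p: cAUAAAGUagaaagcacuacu
The 4 seeds differ, and none was shared with another rat miRNA of the RefSeq table, in which 527 of the 583 listed miRNAs had a sequence. The hairpins follow with the 5p arm and then the 3p arm in capitals.
Mir223: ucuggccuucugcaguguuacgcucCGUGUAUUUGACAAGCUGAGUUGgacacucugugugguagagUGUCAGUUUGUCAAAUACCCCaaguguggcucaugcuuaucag
Mir142: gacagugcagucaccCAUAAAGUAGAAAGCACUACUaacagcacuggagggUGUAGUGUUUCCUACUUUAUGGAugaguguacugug
Mir223 is at chrX:65151383-65151492 on the plus strand of GRCr8, within the span of a long non-coding RNA gene (LOC120099372), and the nearest protein-coding genes on either side are Msn and Vsig4. Mir142 is at chr10:73055104-73055190 on the plus strand of GRCr8, within the span of Tspoap1, with Mpo, the myeloperoxidase gene of neutrophils, as the next protein-coding gene. The deposited tables give no positions, and the submitters' processing notes name another build, mRatBN7.2. In the fold predicted by RNAfold, 15 of the 23 bases of miR-223-5p pair with the 3p arm, and 19 of the 21 bases of miR-142-5p.

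Levels below are normalized reads, that is reads divided by a size factor for the library. The authors' group means could be solved into whole reads for 3 CK and 3 M libraries in each table, except for the most abundant miRNAs. Library 1 has the smallest size factor of its group and library 3 the largest, and no library can be tied to a labelled sample. By estimate, heart libraries held 2253000 to 6610000 miRNA reads and exosome libraries 1696000 to 5328000. The estimate multiplies the summed group mean by the size factor, as if all libraries of a group had the same normalized total. Depth was not counted, because the most abundant miRNAs were not solved. Heart M library 2 stood apart from the others. It held the highest level of the 6 libraries for 34.0% of 285 solved heart miRNAs, against 9.12% to 17.9% for each of the others. It also held the lowest level for 25.7% of them, against 10.6% to 16.5% for each of the others. In the exosome table, 64 of 307 solved miRNAs were found in 1 library alone, at a median of 56.5 reads, against 45 of 501 in heart at a median of 1 read. The tissue labels had their usual miRNAs: in the authors' deposited tables miR-499-5p, encoded in a cardiac myosin gene, had a CK mean of 20710 in heart and 67.8 in the exosome table, while liver-derived miR-122-5p had 16.9 and 30260. Whether each sample is its own animal is not in the labels, and the spread behind the p-values may be technical.

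In heart, all 4 arms had higher means in M than in CK, by 1.74-fold to 2.87-fold, as did 51.4% of the 574 miRNAs. None of the 4 passed an adjusted p of 0.05 over all miRNAs in the authors' deposited table, where 0.697% of the 574 miRNAs did. 3 of the 4 (miR-223-5p and both arms of miR-142) were at an unadjusted p below 0.05 and higher in M, where 4.18% of the 574 miRNAs were. The median log2 fold of the 4 was 0.89, beside 0.03 over the 510 heart miRNAs with both means above 0, from the authors' deposited table. The arms of a hairpin come from the same transcript and the same libraries, so these are not 4 separate observations. Bulk tissue does not separate more cells of a type from more RNA in each cell.

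miR-223-5p, the less abundant arm of miR-223, had levels of 64.1, 49.2 and 63.8 in heart CK libraries 1 to 3 and 138, 247 and 124 in M libraries 1 to 3. Every M library lay above every CK library, with M library 2 the highest. The means were 59.0 ± 8.51 in CK and 169 ± 67.3 in M (SD, n = 3 libraries each). In the authors' deposited table this was a 2.87-fold difference (p = 0.00314, adjusted p = 0.258), the 7th smallest p of the 574 miRNAs, and it did not pass the adjusted threshold. limma on the solved reads gave a log2 fold of 1.45 ± 0.33 (SE, adjusted p = 0.0728). Without M library 2 the limma log2 fold was 1.14 with an adjusted p of 0.0425, past the threshold, where 3.16% of the 285 miRNAs were called higher in M. Its unadjusted limma p rose from 0.00157 to 0.00224 there, while calls over all 285 miRNAs rose from 2 to 15.

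miR-223-3p, the arm that usually does most of the targeting, had levels of 262.5, 125 and 130.2 in heart CK libraries 1 to 3 and 259, 434 and 208 in M libraries 1 to 3. The groups overlapped: CK library 1 lay above M libraries 1 and 3. The means were 173 ± 77.9 in CK and 300.3 ± 118 in M (SD, n = 3 each). The authors' deposited fold was 1.74 (p = 0.0847, adjusted p = 0.793), and the limma log2 fold was 0.81 ± 0.38 (SE, adjusted p = 0.233). It was 1.16 without CK library 1 and 0.51 without M library 2, with limma adjusted p of 0.259 and 0.371.

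miR-142-5p was the most abundant member in heart, with levels of 482, 383 and 473 in CK libraries 1 to 3 and 788, 1027 and 713 in M libraries 1 to 3. The groups did not overlap. The means were 446 ± 54.5 in CK and 842 ± 164 in M (SD, n = 3 each). In the authors' deposited table the fold was 1.89 (p = 0.0239, adjusted p = 0.574), and limma gave a log2 fold of 0.91 ± 0.24 (SE, adjusted p = 0.0984).

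miR-142-3p, its partner arm, had levels of 259, 145 and 199.9 in heart CK libraries 1 to 3 and 357, 423 and 326 in M libraries 1 to 3. Again every M library lay above every CK library. The means were 201 ± 57.3 in CK and 368 ± 49.7 in M (SD, n = 3 each). The authors' deposited fold was 1.83 (p = 0.0314, adjusted p = 0.574), and the limma log2 fold was 0.90 ± 0.28 (SE, adjusted p = 0.111). Thus 3 of the 4 members had all M libraries above all CK libraries in heart, where 16.8% did of the 285 solved miRNAs whose larger group mean was 10 or more. limma called 0 of the 4 at an adjusted p of 0.05, where it called 0.702% of the 285, and 3 of the 4 were higher in M at an unadjusted p below 0.05 in limma, where 13.7% of the 285 were.

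**Figure D1:**
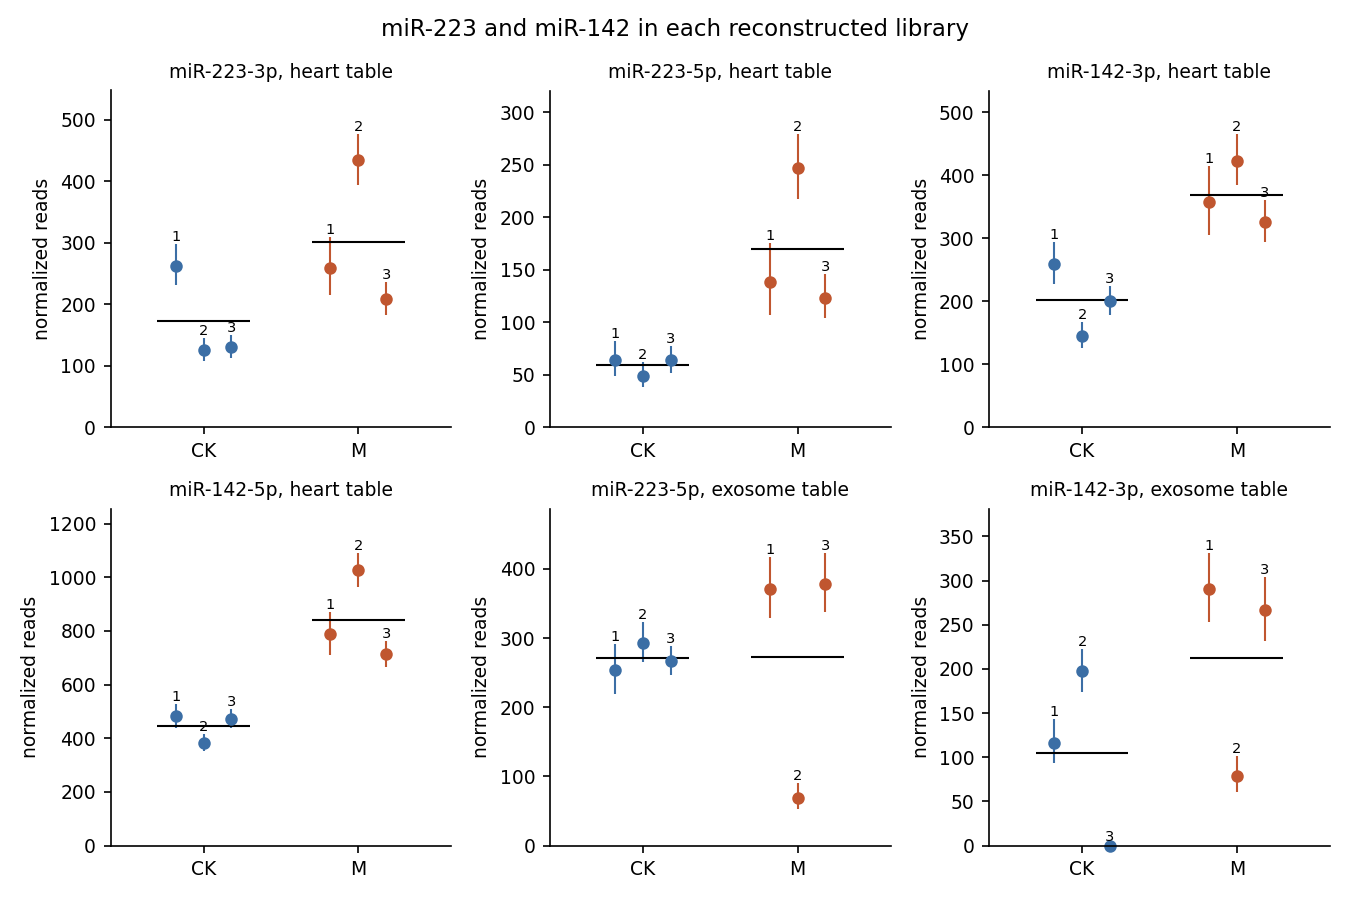
Normalized reads (vertical axis, from 0) of the members in each reconstructed library of the CK and M groups, with the library number above each point, exact 95% Poisson intervals (counting error only) as bars and the group mean as a line. In heart the M libraries lie above the CK libraries for miR-223-5p, miR-142-3p and miR-142-5p and overlap for miR-223-3p, while in the exosome panels both miRNAs overlap and miR-142-3p is at 0 in CK library 3.

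**Figure D2:**
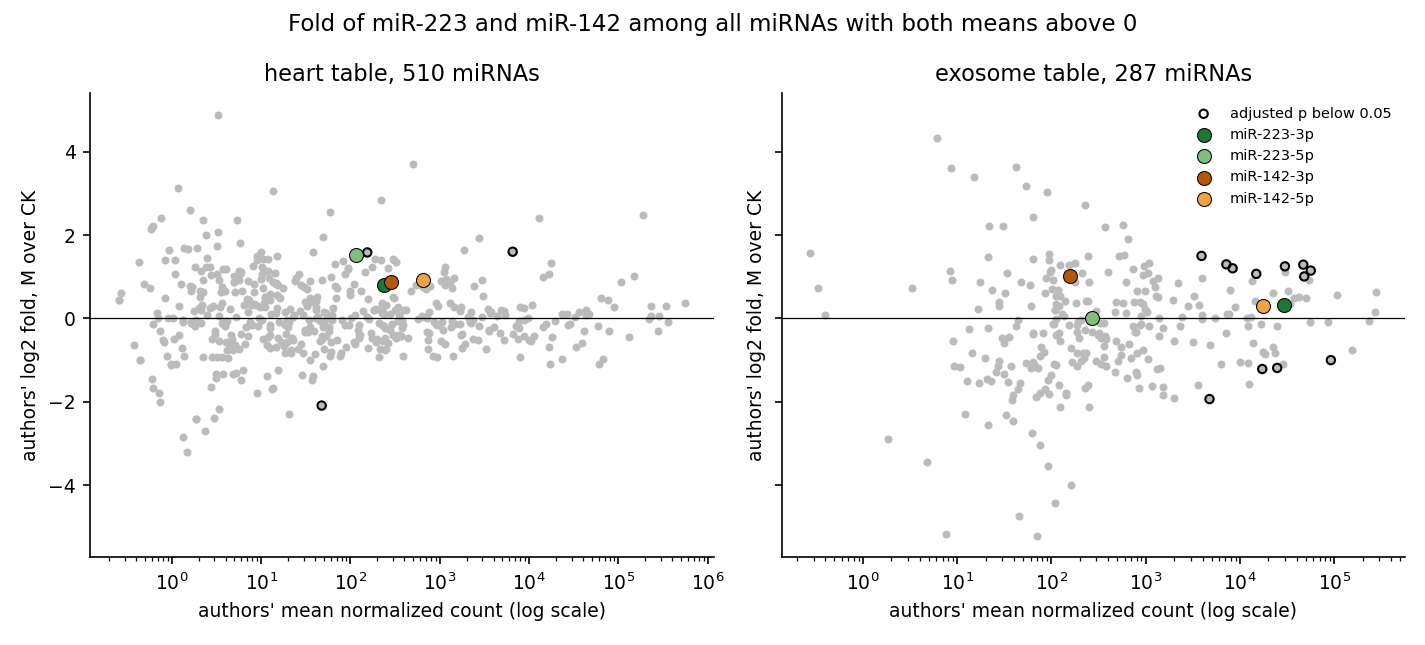
The authors' log2 fold of M over CK (vertical axis) against the deposited mean over both groups (horizontal, log scale) for the 510 heart and 287 exosome miRNAs with both means above 0. The 4 members (coloured) lie above 0 in heart, from 0.80 to 1.52, and from 0.01 to 1.02 in the exosome table, and none is among the miRNAs with an adjusted p below 0.05 (open circles).

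The arm ratios of miR-142 in heart overlapped between the groups. The 5p arm had 1.86, 2.65 and 2.37 reads for each 3p read in CK libraries 1 to 3, and 2.21, 2.43 and 2.19 in M libraries 1 to 3. The mean log2 ratio of 3p over 5p was -1.18 ± 0.26 in CK and -1.18 ± 0.083 in M (SD, n = 3 each), a difference of -0.0034 (exact permutation test, two-sided, p = 1, smallest possible 0.1). The difference was -0.12 to 0.14 when each library was left out in turn.

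The arm ratios of miR-223 in heart did not overlap between the groups. How many other hairpins also lacked overlap was not counted. The 3p arm had 4.10, 2.54 and 2.04 reads for each 5p read in heart CK libraries 1 to 3, and 1.88, 1.76 and 1.69 in M libraries 1 to 3. All 3 M libraries lay below all 3 CK libraries, and CK library 1 was the farthest from the rest. The mean log2 ratio was 1.47 ± 0.51 in CK and 0.83 ± 0.078 in M (SD, n = 3 each), and the difference of -0.65 had the smallest p the design allows (exact permutation test, two-sided, p = 0.1), which is above 0.05. Without CK library 1 the difference was -0.36. As a share of the reads of both arms, the 3p arm made up 67.1% in CK library 3 (95% exact binomial interval 61.5% to 72.4%) and 65.2% in M library 1 (57.9% to 72.0%), so the nearest libraries of the groups differed by less than counting error. Both intervals cover counting error only. From group means, the change of the 3p over 5p ratio from CK to M in heart was the 12th lowest of 64 hairpins for miR-223 (log2 change -0.72) and the 36th for miR-142 (-0.045), beside a median of -0.11. The 64 hairpins have both arms in both tables, every group mean above 0 and a larger arm mean of at least 10 in each group.

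**Figure D3:**
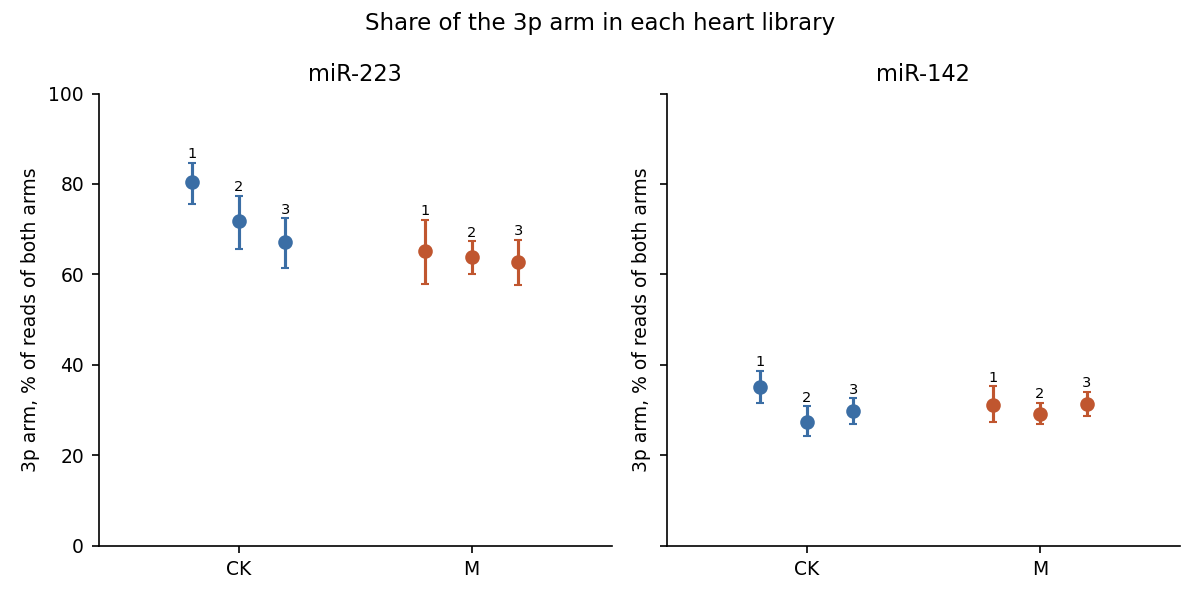
Reads of the 3p arm as a percentage of the reads of both arms of miR-223 and miR-142 (vertical axis, 0 to 100) in each heart library, numbered, with exact 95% binomial intervals. For miR-223 the CK libraries run from 80.4% to 67.1% and the M libraries from 65.2% to 62.8%, while for miR-142 the groups overlap between 27.4% and 35.0%.

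miR-223 was set against miR-142 in the same libraries, where size factors cancel, as a myeloid miRNA against one of all leukocytes. With the 5p arms the ratio was 0.133, 0.128 and 0.135 in heart CK libraries 1 to 3 and 0.175, 0.240 and 0.173 in M libraries 1 to 3, with no overlap. The share of other pairs of miRNAs without overlap was not counted. The log2 difference was 0.55 (exact permutation test, two-sided, p = 0.1, the smallest possible), and 0.40 without M library 2. With the 3p arms the ratio was 1.01, 0.865 and 0.652 in CK and 0.726, 1.03 and 0.640 in M. Those groups overlapped, with a log2 difference of -0.087 (exact permutation test, two-sided, p = 0.8). That difference had no stable sign, at -0.28 to 0.057 when each library was left out in turn. By arithmetic, the 5p difference (0.55) is the 3p difference (-0.087) plus the miR-142 arm difference (-0.0034) minus the miR-223 arm difference (-0.65). The 5p result is thus not a separate observation from the arm ratio of miR-223. The 5p pair also sets the scarce arm of miR-223 against the abundant arm of miR-142.

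Other leukocyte miRNAs in heart did not share 1 direction. In the authors' deposited table, 8 of 15 listed were higher and 7 lower in M, and their median log2 fold was 0.09. A single one, miR-146b-5p, passed the adjusted threshold there, with means of 3244 in CK and 9836 in M (adjusted p = 0.0220). At an unadjusted p below 0.05 the authors also had higher M means for miR-155-5p, induced in activated immune cells (p = 0.00605), and miR-147, induced by Toll-like receptor signalling in macrophages (p = 0.00444). The levels of miR-155-5p were 139, 135 and 201 in CK libraries 1 to 3 and 350.3, 493 and 258 in M libraries 1 to 3. For miR-150-5p of mature lymphocytes the means in the authors' deposited table were 10399 in CK and 5467 in M (unadjusted p = 0.0258).

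Red cell, platelet and muscle miRNAs are given as other contents of the same heart libraries. None of the 5 red cell members had a mean of 0, and by the authors' means 2 were higher and 3 lower in M, with summed means of 83749.5 in CK and 40159 in M, nearly all of it miR-486, which muscle also makes. For miR-486 the means in the authors' deposited table were 81592 in CK and 37987 in M (p = 0.0313, adjusted p = 0.574). miR-451-5p, which is specific to red cells, had levels of 2715, 1346 and 2052 in CK libraries 1 to 3 and 2063, 1672 and 2530.1 in M libraries 1 to 3, so the groups overlapped. For miR-144-3p, also listed for red cells, every M library lay below every CK library, an order whose share over all miRNAs is not given. Its levels were 93.5, 62.9 and 76.7 in CK and 42.5, 34.3 and 47.6 in M (the authors' deposited p = 0.0819, adjusted p = 0.793). Its partner arm miR-144-5p overlapped, at 51.5, 18.8 and 52.9 in CK and 59.4, 20.6 and 43.2 in M. Of 4 miRNAs abundant in platelets 3 had a higher mean in M, with summed means of 435289 in CK and 773090 in M. Most of that difference was in miR-21-5p, also abundant in fibroblasts, with means of 57800 and 322234 in CK and M (5.58-fold by the authors' deposited table, p = 0.00132, adjusted p = 0.151). For miR-126a-3p, also of endothelial cells, the means were 308114 and 378812 (p = 0.581 in the authors' deposited table). Of 7 heart muscle miRNAs 6 were lower in M, with summed means of 683530 in CK and 658465 in M. For miR-133a-3p the means in the authors' deposited table were 87890.2 in CK and 44805 in M (p = 0.0178, adjusted p = 0.556). miR-133b-3p of differentiated muscle (the authors' deposited p = 0.0270, adjusted p = 0.574) had its lowest level, 441, in M library 2, where each of the 4 members had its highest, and 1093 and 1393 in M libraries 1 and 3, beside 1619 to 1956 in CK. That library held the highest level for 34.0% and the lowest for 25.7% of the 285 solved heart miRNAs. The part of muscle, vessel, platelet, fibroblast or red cell content in the folds of the members was not tested.

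In the exosome table the 4 members had higher means in M, by 1.01-fold to 2.03-fold, and in the authors' deposited results 0 of the 4 had an unadjusted p below 0.05. There 5.72% of the 367 miRNAs were at an unadjusted p below 0.05 and higher in M, and 3.81% passed the adjusted threshold in either direction. A mean higher in M was found for 40.9% of the 367 miRNAs.

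miR-223-3p was the most abundant member, with authors' means of 26065 in CK and 32691 in M. That placed it 22nd and 20th by mean among the 367 miRNAs. The authors' deposited fold was 1.25 (p = 0.265, adjusted p = 0.876). miR-142-5p had authors' means of 15728 and 19399, 34th and 24th by mean, with a deposited fold of 1.23 (p = 0.416, adjusted p = 1). Their reads could not be solved, so the spread over libraries is unknown for these 2 arms.

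The scarce arms could be solved and scattered widely. miR-223-5p had levels of 253, 293 and 266 in exosome CK libraries 1 to 3 and 371, 69.3 and 378 in M libraries 1 to 3. M library 2 lay below all CK libraries and the other M libraries above them, so means of 271 ± 20.3 and 273 ± 176 (SD, n = 3 each) hid opposite deviations. The authors' deposited fold was 1.01 (p = 0.994, adjusted p = 1). The limma log2 fold was -0.34 ± 0.83 (SE, adjusted p = 0.888), and 0.47 without M library 2.

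miR-142-3p had 89, 264 and 0 reads in exosome CK libraries 1 to 3, and 223, 64 and 216 in M libraries 1 to 3. The 0 was in the CK library with the largest size factor. By the estimated depth, the limit of 3 reads allows up to 0.563 reads per 1000000 miRNA reads there, against 52.5 and 89.2 in the other CK libraries. The levels were 116, 197 and 0 in CK (105 ± 99.2, SD, n = 3) and 291, 79.2 and 266 in M (212 ± 116). The authors' deposited fold was 2.03 (p = 0.378, adjusted p = 1). Neither solved arm had all M libraries above all CK libraries, where 4.91% of the 285 solved exosome miRNAs did. The limma log2 fold was 2.69 ± 1.81 (SE, adjusted p = 0.574) and 0.27 without CK library 3, so its size rested on that library. In limma 0 of the 2 solved members were at an unadjusted p below 0.05, where 12.6% of the 285 exosome miRNAs (36) were in either direction, and limma called none of the 285 at an adjusted p of 0.05 (0%).

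The folds of the 2 arms solved in both tables were compared between heart and exosome samples in a single limma model, with 12 libraries and 212 miRNAs, of which 1.89% were called. For miR-223-5p the log2 fold was 1.45 in heart and -0.34 in the exosome table, a difference of 1.78 ± 0.95 (SE, adjusted p = 0.444). For miR-142-3p the difference was -1.79 ± 2.13 (SE, adjusted p = 0.698), and it was 0.63 without exosome CK library 3. Neither difference passed. For miR-223-3p and miR-142-5p the folds of 1.74 and 1.89 in heart stand beside 1.25 and 1.23 in the exosome table, and their difference could not be tested over libraries.

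The other leukocyte miRNAs of the exosome table were lower more often than higher, 9 against 5 of the 14 listed, where 40.9% of all 367 miRNAs were higher in M. Their median log2 fold was -0.28 beside -0.15 over the 287 miRNAs with both means above 0 (authors' deposited table). The sets differ in that a listed miRNA with an M mean of 0 counts in the first median and not in the second. For miR-146a-5p, which restrains Toll-like receptor signalling, the authors' deposited means were 13320.2 in CK and 6500 in M (adjusted p = 0.0529). For miR-181a-5p of lymphocytes they were 8501 and 3958 (adjusted p = 0.0705). Both missed the adjusted threshold and were at an unadjusted p below 0.05. Of the same family, miR-181d-5p had means of 919 and 1787 (p = 0.0522, adjusted p = 0.365) and miR-181c-5p 272 and 766 (p = 0.0831, adjusted p = 0.484) by the authors' test, both higher in M and neither past the threshold. Red cell miRNAs were abundant there, with means of 257951 and 287407 for miR-486 and 7965 and 9585 for miR-451-5p, and 3 of the 4 listed had a higher mean in M. Among them miR-144-5p had the authors' means of 609 and 1541 (2.53-fold, p = 0.0155, adjusted p = 0.183). Of the 4 miRNAs abundant in platelets 3 had a higher mean in M, with summed means of 455856 in CK and 515965 in M. By the authors' deposited table, miR-191a-5p had means of 218018 and 340104 (p = 0.0427, adjusted p = 0.326), and miR-24-3p had 194338 and 115360 (p = 0.0119, adjusted p = 0.156). Of 3 liver miRNAs 2 had a lower mean in M, among them miR-192-5p with the authors' deposited means of 1969 and 866 (p = 0.0289, adjusted p = 0.259). The part of red cell, platelet or liver content in the members' exosome folds was not tested.

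The order of the members differed between heart and exosome samples. The tables were normalized separately, so each mean was taken as a share of the summed means of its group, in parts per 1000000 (ppm), and no level was tested between tables. In heart CK the order was miR-142-5p (104.7 ppm), miR-142-3p (47.2), miR-223-3p (40.5) and miR-223-5p (13.8). In heart M it was the same, with 176, 77.0, 62.8 and 35.4 ppm. The neighbours miR-142-3p and miR-223-3p overlapped in library levels in both heart groups, 145 to 259 against 125 to 262.5 in CK and 326 to 423 against 208 to 434 in M. In exosome CK the order was miR-223-3p (11767 ppm), miR-142-5p (7101), miR-223-5p (122) and miR-142-3p (47.2), and in exosome M 13527, 8027, 113 and 87.7. There miR-223-5p and miR-142-3p overlapped in M but not in CK.

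**Figure D4:**
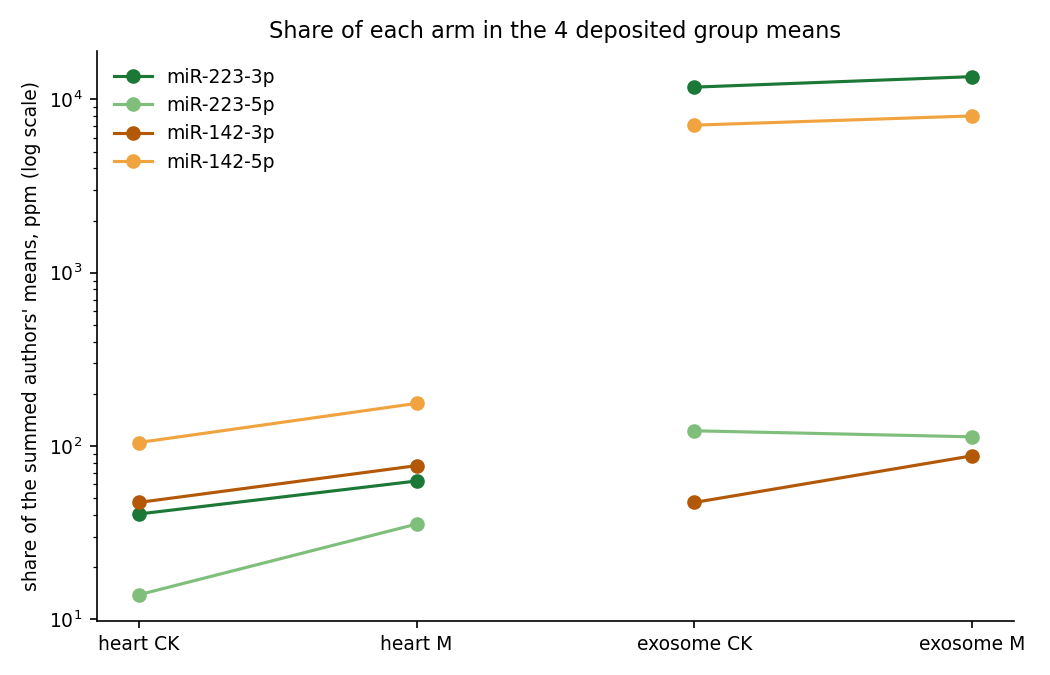
Each arm's share of the summed authors' means in the heart CK, heart M, exosome CK and exosome M groups, in ppm on a log scale, with 1 point per group and no error because the points are the authors' means. miR-223-3p and miR-142-5p lie at 40.5 to 176 ppm in heart and at 7101 to 13527 in the exosome table. The means of miR-142-3p lie between 47.2 and 87.7 in all 4 groups, with a library at 0 in exosome CK.

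miR-223-3p made up a 290-fold larger share in exosome CK than in heart CK, and a 215-fold larger share in M. It ranked 2nd of 236 miRNAs with a mean of at least 10 in all 4 groups in both cases, behind liver-derived miR-122-5p. The median over the 236 was 1.63-fold in CK and 1.44-fold in M. For miR-142-5p the share was 67.8-fold larger in CK (5th) and 45.6-fold in M (9th). The partner arms stood elsewhere, with 8.83-fold and 3.19-fold for miR-223-5p (47th and 84th) and 0.9995-fold and 1.14-fold for miR-142-3p (149th and 134th). The exosome means of miR-142-3p come from scattered libraries, at levels of 116, 197 and 0 in CK and 291, 79.2 and 266 in M. Differences between a tissue and a serum preparation include how the RNA was prepared, and the part of that was not tested.

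The division between arms was much more uneven in the exosome table than in heart for both hairpins, in opposite directions. From the authors' means, miR-223-3p exceeded miR-223-5p by 2.92-fold in heart CK and 1.77-fold in heart M, and by 96.2-fold in exosome CK and 119.8-fold in exosome M. miR-142-5p exceeded miR-142-3p by 2.22-fold and 2.29-fold in heart, and by 150.4-fold and 91.5-fold in exosome CK and M. The abundant arm of each hairpin was thus the same in both tables, 3p for miR-223 and 5p for miR-142. These ratios were not tested, since the abundant arms could not be solved in the exosome table, and the exosome ratio of miR-142 in CK rests on a 3p mean that includes the library at 0.

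Among the same 64 hairpins as above, the arm ratio differed between exosome and heart by a median of 3.74-fold in CK and 3.78-fold in M, in either direction. miR-142 differed by 67.9-fold in CK and 40.0-fold in M, 6th of 64 in both, and miR-223 by 32.9-fold (9th) and 67.6-fold (2nd). A shift of over 10-fold was seen in 15 of the 64 hairpins in CK. Large shifts of the arm ratio were thus found in other hairpins as well.

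**Figure D5:**
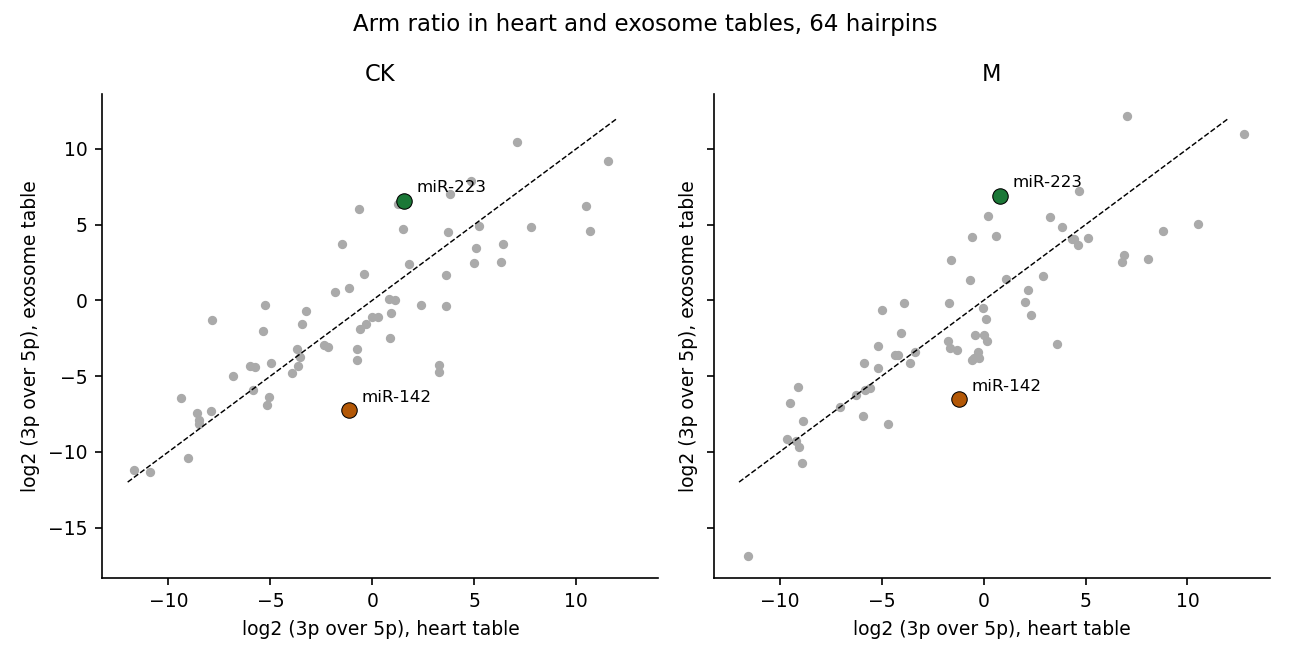
The log2 ratio of the 3p over the 5p arm in the heart table (horizontal axis) and in the exosome table (vertical) for 64 hairpins, in CK (left) and M (right), from the authors' means, with a dashed line where both are equal. miR-223 lies above the line, by 5.04 in CK and 6.08 in M, and miR-142 below it, by 6.08 in CK and 5.32 in M.

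Patterns over the 4 group means were compared by the root mean square difference of centred log2 shares, among the 236 miRNAs. For miR-223-3p the nearest were miR-191a-3p (0.57), miR-130b-5p (1.02) and miR-142-5p (1.09). For miR-142-5p they were miR-130b-5p (0.29), miR-18a-3p (0.48) and miR-144-5p (0.51), and miR-223-3p was 20th (1.09). For miR-223-5p they were miR-205 (0.27), miR-501-3p (0.31) and miR-106b-5p (0.42). For miR-142-3p they were let-7c-5p (0.23), miR-27a-5p (0.33) and miR-466c-5p (0.33), and its partner arm miR-142-5p was 223rd (2.86). The abundant arms of the 2 hairpins were thus nearer to each other than to their own partner arms, which lay at 2.79 for miR-223 and 2.86 for miR-142. This likeness rests on 4 means and mostly on the contrast between heart and exosome samples.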

How the data were processed

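Small RNA libraries were made with the NEBNext kit, per the labels' protocols. Bowtie2 2.2.6, DESeq 1.30.0 and the build mRatBN7.2 were used, per the submitters' processing notes, while trimming, miRNA annotation and multiply matching reads are not described in the sources used here. Per the file headers, the authors deposited mean normalized counts for CK and M (counts divided by size factors), their fold (the ratio M over CK), its log2 and a p-value and adjusted p-value per miRNA. A call is the authors' adjusted p below 0.05, and recomputed Benjamini-Hochberg values differed from it by at most 6.45e-15. The members, lists and tests were chosen with earlier results of these data known.

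Each deposited mean has 15 significant digits and was solved as whole reads times 3 fixed steps per group (relative tolerance 6e-15, at most 0.01 expected false solutions). Every searched mean had exactly 1 solution, in 84.2% to 89.2% of rows per group, and the largest mean solved was 2643 to 4460. The search was tested on simulated means with known reads. Recomputed size factors lay within 2.08% of the steps in heart and 4.72% in the exosome table. limma 3.58.1 (trended prior) was fitted to log2(level + 1) of solved miRNAs with a larger group mean of at least 10 (285 in each table), with Benjamini-Hochberg adjustment, and tested on simulated data. Its folds are on that scale, where the added 1 shrinks the change of low miRNAs. A library at 0 can instead make the fold larger than that of the means. For miR-142-3p in the exosome table the log2 fold was 2.69 in limma and 1.02 by the authors. Ratios between arms and between hairpins were tested by exact permutation over 6 libraries. Named miRNAs are the 4 members, the 3 nearest in pattern to each and listed cell type miRNAs at an unadjusted p below 0.05 or that define a type. Both arms of miR-144, miR-181c-5p and miR-181d-5p are also named, beside others of their list. Python 3.11.15, scipy 1.17.1 and RNAfold 2.7.2 were used.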

Additional observations from a re-analysis of the deposited data

How the results depend on the processing

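In heart the 4 members kept a higher mean in M in all 52 combinations of member and setting, and 1 of these changed its side of the threshold, miR-223-5p without M library 2. In that setting its unadjusted limma p was higher than with all libraries, at 0.00224 against 0.00157. Many of the 52 outcomes were fixed in advance. For miR-223-5p and both arms of miR-142 every M library lay above every CK library, so no pseudocount or omitted library could reverse the sign. Adjusting p over fewer miRNAs left each fold unchanged. When each library was left out in turn, limma log2 folds in heart were 1.14 to 1.64 for miR-223-5p, 0.51 to 1.16 for miR-223-3p, 0.75 to 1.02 for miR-142-5p and 0.68 to 1.10 for miR-142-3p. Taking shares of the summed means in place of size factors lowers every log2 fold by the same amount (-0.17 in heart and -0.13 in the exosome table) and gives no p. In the exosome table miR-223-5p, at 0.01 in the authors' deposited table, reversed to -0.34 in limma, -0.31 with recomputed size factors, -0.34 with a pseudocount of 0.5, -0.32 with 5, -0.34 with no filter on low means and -0.12 as a share of the summed means, and was -0.75 to 0.47 without each library. miR-142-3p of the exosome table, at 1.02 by the authors, was 2.69 in limma, 3.02 with a pseudocount of 0.5 and 1.93 with 5. It was 0.27 to 4.09 there without each library. The difference of the folds between tables was 0.98 to 2.19 for miR-223-5p and -3.19 to 0.63 for miR-142-3p. The heart arm difference was -0.87 to -0.36 for miR-223 and -0.12 to 0.14 for miR-142. The miR-223 over miR-142 difference was -0.28 to 0.057 with the 3p arms and 0.40 to 0.64 with the 5p arms, and changing from 3p to 5p arms reversed it from -0.087 to 0.55. By arithmetic, this change equals the heart arm difference of miR-142 (-0.0034) minus that of miR-223 (-0.65). The reversal of exosome miR-223-5p as a share is the common shift of -0.13 given above. The causes of the other reversals were not tested. In heart the authors' table called 4 miRNAs and limma 2, also 2 with recomputed size factors and with pseudocounts of 0.5 and 5, 5 with no filter on low means, and 1 to 15 without each library. In the exosome table the authors' table called 14, and limma called 0 in each of these settings, with no filter and without each library, while 36 were at an unadjusted p below 0.05 in limma with its main settings, 33 to 34 in the other settings and 20 to 33 without each library. miR-223-3p and miR-142-5p of the exosome table could not be recomputed without a library. No paired analysis was possible because the deposited columns carry no replicate numbers, and the numbers in the sample titles cannot be tied to CK or M.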
